A study of Homo sapiens with 8 samples.

Results

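The genes described here are the cyclin-dependent kinase gene CDK2, its cyclin partners CCNE1, CCNE2 and CCNA2, the kinase gene CDK1, the activating phosphatase gene CDC25A and the kinase-binding subunit genes CKS1B and CKS2. They are 8 of the 18132 genes that the arrays measured with probe sets assigned to a single gene, and they were chosen by name. Each gene was read on its brightest probe set over the 8 arrays, and its dimmer probe sets served as a check. RNA came from NB4, a human promyelocytic leukaemia cell line that had been transduced with lentivirus (multiplicity of infection, 10). The arms were 3 short hairpin RNAs against CDK2 (shCDK2 #1, shCDK2 #3 and shCDK2 #10) and a scrambled control, each collected at 2 and at 5 days, times that the submitters describe as an early and a late stage of differentiation. There were 8 Affymetrix arrays, 1 per construct and day, and all constructs shared the same cell line and method of transduction. The labels name no separate cultures and no differentiating agent, and the hairpin sequences were not analysed here. The day 5 array labelled scramble is named so throughout, as is the array labelled #3 at day 2, because of their CDK2 levels. On the brightest probe set, the array labelled #3 at day 2 held CDK2 near the level of scramble at day 2, against its label. The day 5 array labelled scramble held less CDK2 than scramble at day 2, though more than each hairpin array at day 5.

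CDK2 is a serine/threonine kinase that is inactive until a cyclin binds it. E-type cyclins pair with it at the entry into S phase, and cyclin A2 pairs with it during DNA replication and later with CDK1, the kinase that drives mitosis. CDC25A removes inhibitory phosphates from CDK2 and CDK1, and the small CKS proteins dock on the kinases and help them to reach their substrates. E2F transcription factors are known to activate several of these genes, and promoters of cell cycle genes are known for CCAAT boxes and for the cell cycle gene homology region, or CHR.

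Promoter sequence is shown for the 2 members that passed the test in hairpin #10, CCNA2 and CDC25A, and for the 2 members whose levels followed CDK2 most closely over the arrays, CKS1B and CKS2. The sequences are the 150 bases before the annotated start of each gene in RefSeq, build GRCh38.p14, written 5′ to 3′ on the strand of the gene. Capitals mark CCAAT (or its reverse complement ATTGG), the CHR letters TTTGAA (or TTCAAA) and the E2F letters TTTGGCGC or TTTCGCGC (or GCGCCAAA or GCGCGAAA).
CCNA2, chr4:121823884-121824033, minus strand: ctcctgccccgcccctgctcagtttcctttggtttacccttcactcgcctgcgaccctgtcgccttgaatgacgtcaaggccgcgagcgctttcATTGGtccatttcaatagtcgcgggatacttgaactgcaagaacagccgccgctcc
CDC25A, chr3:48188418-48188567, minus strand: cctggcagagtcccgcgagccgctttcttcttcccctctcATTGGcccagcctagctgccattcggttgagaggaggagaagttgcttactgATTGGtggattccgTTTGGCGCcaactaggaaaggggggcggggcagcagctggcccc
CKS1B, chr1:154974531-154974680, plus strand: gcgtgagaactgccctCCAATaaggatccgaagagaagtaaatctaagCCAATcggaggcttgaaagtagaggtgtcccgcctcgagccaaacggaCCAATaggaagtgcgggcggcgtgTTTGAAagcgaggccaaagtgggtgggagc
CKS2, chr9:89311045-89311194, plus strand: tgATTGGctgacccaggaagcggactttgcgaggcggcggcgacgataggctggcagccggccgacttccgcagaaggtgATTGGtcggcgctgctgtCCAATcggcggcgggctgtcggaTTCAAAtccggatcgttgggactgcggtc
The RefSeq table held promoters for 6 of the 8 members. In the 250 bases before the start, CCAAT or its reverse complement stood in 5 of these 6 genes, against 32% of 35116 promoters of the same length. CDC25A alone among the 4 sequences held the E2F letters TTTGGCGC, 44 to 37 bases before its start, and 0.55% of promoters held them. CKS1B and CKS2 each held a CHR match, 30 to 25 and 29 to 24 bases before the start, a motif found in 13.3% of promoters. Both also carried a CCAAT box close to it, with its first base 54 bases before the start in CKS1B and 52 bases in CKS2. CDK1 has 2 starts in the table, both with CCAAT and CHR letters. CDK1 also held the E2F letters TTTCGCGC, 128 to 121 bases before a start, letters that 0.439% of promoters held. CCNE1 had no match. A match describes letters only. Other spellings of these motifs were not searched for, so a promoter without a match may still hold such an element.

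The authors' log2 signals had array medians between 6.3 and 6.43 and standard deviations between 2.14 and 2.26, no 2 arrays were identical, and all 8 members lay above the level used as a filter (a mean of 5.83 log2) and were tested among 12845 genes. Promyelocyte markers were bright: MPO lay between 13.37 and 14.4 log2 over the arrays and PRTN3 between 9.76 and 11.18. AZU1 lay between 8.39 and 10.5 and CTSG between 7.97 and 9.74. ELANE, at 5.83 to 6.35, was near the array medians. At day 2, AZU1 was higher in #10 than in scramble (10.5 against 9.28), while MPO, PRTN3, CTSG and ELANE were lower. The T cell gene CD3D was also bright and stood at 11.27 in #10 at day 2 and 10.85 in #10 at day 5, against 8.81 in scramble at day 2 and 8.82 in the day 5 array labelled scramble. The 4 measured T and B cell markers summed to linear signals of 895 to 2712 in the hairpins and 688 in scramble at day 2, and to 763 to 2080 in the hairpins and 761 in the day 5 array labelled scramble. CD3E, at 5.8 to 6.37, and MS4A1, at 4.03 to 4.67, lay near or under the array medians. CD79A, at 7.13 to 7.67, lay above them. In #10 it stood at 7.32 at day 2 and 7.25 at day 5, against 7.29 in scramble at day 2 and 7.67 in the day 5 array labelled scramble. Of the 4, CD3D was the brightest in every array. The 5 measured promyelocyte markers summed to 13354 to 24967 in the hairpins and 24535 in scramble at day 2, and to 19016 to 22920 in the hairpins and 20646 in the day 5 array labelled scramble. The 5 fibroblast and epithelial markers summed to at most 425 in any array. The part of such markers in the results below was not tested.

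CDK2, the target of the hairpins, was far under its control in #1 and #10 at day 2 and at 72.3% to 95% of it in the other hairpin arrays. The log2 signal was 7.78 in #1, 9.03 in the array labelled #3 and 7.54 in #10 at day 2, against 9.10 in scramble. On day 5 it was 7.89 in #1, 7.72 in #3 and 8.08 in #10, against 8.19 in the day 5 array labelled scramble. On this brightest probe set, the array labelled #3 at day 2 thus held CDK2 near the control level. The day 5 array labelled scramble held 53.2% of the CDK2 seen in scramble at day 2. It still held more CDK2 than each hairpin array at day 5. The reason for either level was not tested, so any direction drawn from either array carries that doubt. Here and below, the residual SD of a gene is that of the fit with construct and day, as moderated by limma across genes. In the order of the 8 levels, 1 gap exceeded this SD of CDK2 (0.42 log2). That gap of 0.84 log2 parted scramble at day 2 and the array labelled #3 at day 2 from the other 6 arrays, which followed each other by less than 1 SD each. In such bulk RNA, fewer cells that express a gene and less RNA per cell cannot be told apart.

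The CDK2 probe sets differed in how much they moved. Against scramble at day 2, #10 stood at 34.0%, 26.6% and 71.7% on probe sets 1, 2 and 3 in order of brightness, and #1 at 39.9%, 28.1% and 79.7%. The day 5 array labelled scramble had, on the same probe sets, 53.2%, 39.5% and 101% of what scramble had at day 2, so the dimmest probe set showed neither the drop between control arrays nor as large a drop in #1 and #10. In limma, the change of CDK2 at day 2 over the 3 hairpins was -0.99 log2 (SE 0.53, 95% confidence interval -2.24 to 0.27, adjusted p = 1.00). Without the array labelled #3 at day 2 it was -1.44 log2. Over both days the change was -0.64 log2 (SE 0.29, interval -1.35 to 0.07), and at day 5 it was -0.29 log2 (SE 0.53, interval -1.55 to 0.96). The difference between the changes of the 2 days, 0.69 log2 (SE 0.75, interval -1.08 to 2.46), did not pass, and it was 0.00 on the dimmest probe set. On that probe set the change of CDK2 was -0.23 log2 at day 2, -0.26 in #1 and -0.35 in #10.

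**Figure D1:**
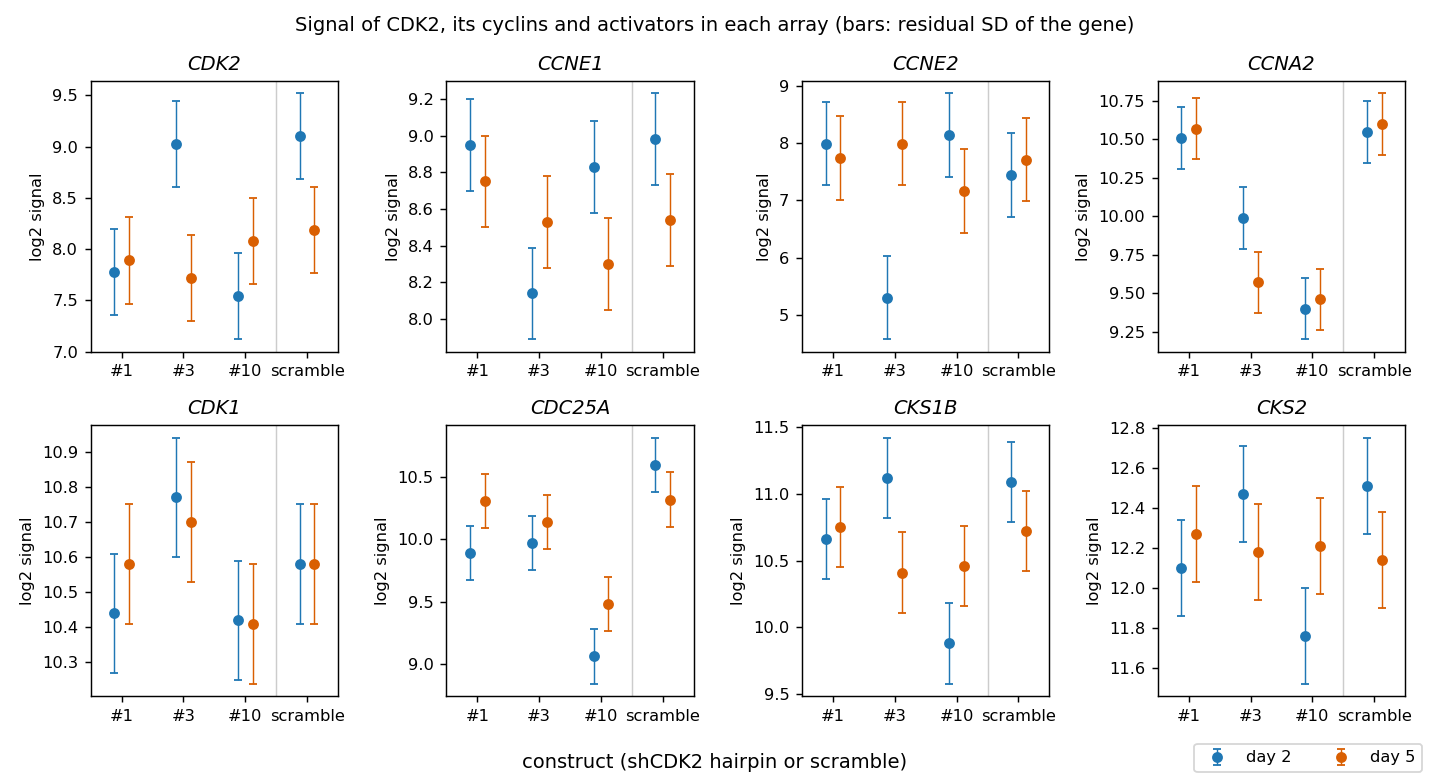
Log2 signal of each gene (vertical axis, own scale) in every array, by construct (horizontal axis) and day (colour). Points are single arrays. Bars are the residual SD of the gene in the fit with construct and day, as moderated by limma, for example 0.42 for CDK2. CDK2 was lowest in #10 at day 2 (7.54), and CCNA2 was low in both #10 arrays (9.40 and 9.46).

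Among the cyclins, CCNA2 was at 44.8% of scramble in #10 at day 2 and at 45.7% of the day 5 array labelled scramble in #10 at day 5. Cyclin A2 activates CDK2 in S phase and CDK1 before mitosis. Its log2 signal was 10.51 in #1, 9.99 in the array labelled #3 and 9.40 in #10 at day 2, against 10.55 in scramble. At day 5 it was 10.57 in #1, 9.57 in #3 and 9.46 in #10, against 10.60 in the day 5 array labelled scramble. On the brighter probe set, both #10 arrays were the lowest of the 8 and both arrays of #1 lay next to the controls. The array labelled #3 at day 2 and #3 at day 5 lay between #1 and #10. Adjacent levels parted by more than the residual SD of 0.20 log2 at 2 places: between #1 at day 2 and the array labelled #3 at day 2 (0.52) and between that array and #3 at day 5 (0.42).

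The 2 CCNA2 probe sets showed #10 alike and #3 unlike. In #10 the signal was 44.8% of scramble at day 2 on the brighter and 52.6% on the dimmer probe set, and 45.7% and 58.6% of the day 5 array labelled scramble. In #3 at day 5 the shares were 49.0% and 84.5% of the day 5 array labelled scramble, and in the array labelled #3 at day 2 they were 67.5% and 89.3% of scramble at day 2. The low level in hairpin #3 was thus mostly a feature of the brighter probe set: with the other, its change against scramble over both days was -0.20 log2, against -0.80 with the brighter one (SE 0.20, adjusted p = 0.295). The dimmer probe set also gave smaller CCNA2 changes over the 3 hairpins, at -0.42 log2 at day 5 and -0.43 over both days, and in #10 against #1, at -0.60. Hairpin #1 had 97.0% of scramble at day 2 on the brighter and 84.4% on the dimmer probe set. At day 5 it had 98.2% and 83.7% of the day 5 array labelled scramble. On the dimmer probe set #1 was thus no closer to the controls than #3.

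The E-type cyclins did not follow CDK2. CCNE1, the cyclin E1 gene, had log2 signals of 8.95 in #1, 8.14 in the array labelled #3 and 8.83 in #10 at day 2, against 8.98 in scramble. On day 5 it had 8.75 in #1, 8.53 in #3 and 8.30 in #10, against 8.54 in the day 5 array labelled scramble. The array labelled #3 at day 2 had the lowest level, yet no neighbours in the order of levels differed by more than the residual SD of 0.25 log2.

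CCNE2, which encodes cyclin E2, varied most of the 8 genes, over a range of 2.84 log2. It stood at 7.99 in #1, 5.30 in the array labelled #3 and 8.14 in #10 at day 2, against 7.44 in scramble. At day 5 it stood at 7.74 in #1, 7.99 in #3 and 7.16 in #10, against 7.71 in the day 5 array labelled scramble. A single array made that range: the array labelled #3 at day 2 had 22.7% of the signal of scramble at day 2, and it lay 1.86 log2 under the next level, against a residual SD of 0.73. On the other CCNE2 probe set, whose mean was under the filter, the same array had 64.2% of the signal of scramble at day 2. There #10 at day 2 had 97.4%, against 163% on the brighter probe set, and #1 had 111%, against 147%. The probe sets differed in direction for #3 at day 5. It had 63.1% of the day 5 array labelled scramble on the dimmer and 122% on the brighter one. CCNE2 was higher than scramble at day 2 in #1 and #10, the day 2 arrays with the least CDK2, by 0.55 and 0.70 log2 on the brighter probe set.

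**Figure D2:**
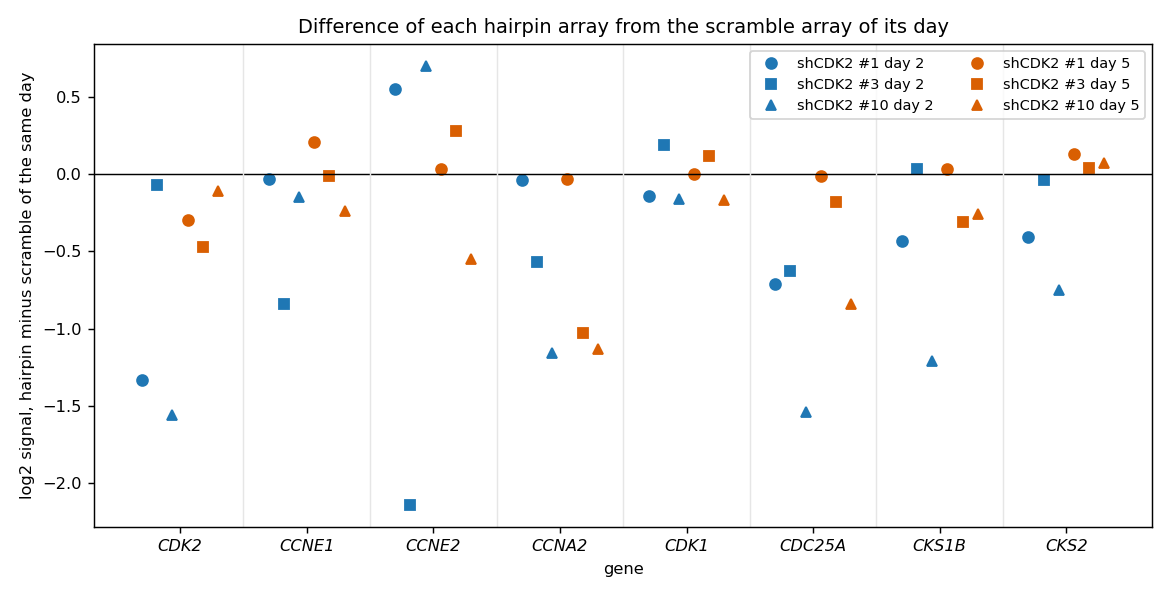
Difference in log2 signal (vertical axis) between each hairpin array and the scramble array of the same day, for the 8 genes (horizontal axis). Symbols are hairpins and colours are days; each point compares 1 array with 1 array. CCNE2 in the array labelled #3 at day 2 (-2.14) is the lowest point, and CDK1 points lie between -0.17 and 0.19.

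CDC25A, the phosphatase gene, was below scramble in every hairpin array on both days, by amounts that ran from 0.01 to 1.54 log2. Its log2 signal was 9.89 in #1, 9.97 in the array labelled #3 and 9.06 in #10 at day 2, against 10.60 in scramble. On day 5 it was 10.31 in #1, 10.14 in #3 and 9.48 in #10, against 10.32 in the day 5 array labelled scramble. The 2 arrays of #10 were the lowest of all, and at day 5 #1 was level with the control. Gaps over the residual SD of 0.22 log2 stood between scramble at day 2 and the next array (0.29), between #1 at day 2 and #10 at day 5 (0.41) and between the #10 arrays (0.41).

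All 3 CDC25A probe sets were low in #10. At day 2 they had 34.5%, 28.8% and 54.2% of the signal of scramble, and at day 5 they had 55.9%, 59.2% and 52.9% of that of the day 5 array labelled scramble. Hairpin #1 had 61.0%, 47.9% and 78.3% of scramble on them at day 2, and 99.4%, 94.7% and 86.2% of the day 5 array labelled scramble at day 5. Its distance from the control was thus smaller at day 5 than at day 2 on all 3 probe sets. The dimmest showed this least, with -0.35 log2 at day 2 and -0.21 at day 5. At day 2 the change over the 3 hairpins was -0.96 log2 (SE 0.44, interval -2.01 to 0.09, adjusted p = 1.00), the largest after that of CDK2, and it was -0.34 (SE 0.44) at day 5. The difference between the days was 0.62 log2 (SE 0.63) and did not pass, and on the dimmest probe set it was 0.00, with -0.63 log2 on either day. Within the hairpins, day 5 against day 2 gave 0.33 log2 (SE 0.31, adjusted p = 1.00), and 0 of the 8 genes passed between days. In that comparison limma called 0 of 12845 genes (0%), with an unadjusted p under 0.05 for 0 members and 260 genes.

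**Figure D3:**
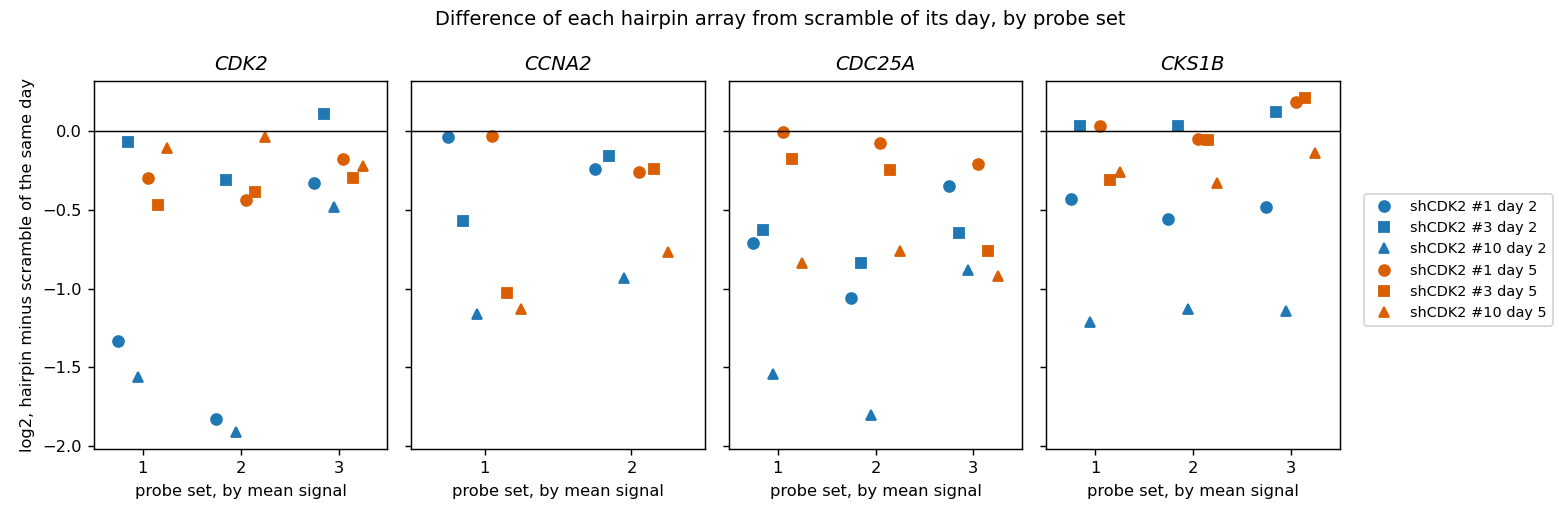
Difference in log2 signal from the scramble array of the same day (vertical axis) on each probe set (horizontal axis, 1 is the brightest) of 4 genes. Symbols are hairpins and colours are days. CDC25A was low in #10 on all 3 probe sets, while for CCNA2 the day 5 point of #3 lay at -1.03 on probe set 1 and at -0.24 on probe set 2.

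The 2 CKS genes were low in the same day 2 arrays as CDK2. CKS1B, whose protein also helps the ubiquitin ligase subunit SKP2 to recognise the CDK inhibitor p27, had log2 signals of 10.66 in #1, 11.12 in the array labelled #3 and 9.88 in #10 at day 2, against 11.09 in scramble. At day 5 it had 10.75 in #1, 10.41 in #3 and 10.46 in #10, against 10.72 in the day 5 array labelled scramble. The level in #10 at day 2 stood 0.53 log2 under the next array, against a residual SD of 0.30. All 3 CKS1B probe sets gave 43.2% to 45.8% of the signal of scramble in #10 at day 2, 67.8% to 74.2% in #1 and 102% to 108% in the array labelled #3. Probe sets whose names end in _x or _s can take up signal from more than the transcript they are named for. All those of CKS1B do so, as do the brightest of CDC25A, CCNE1, CDK1 and CDKN1A, so these values are less specific.

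CKS2, measured by a single probe set, had log2 signals of 12.10 in #1, 12.47 in the array labelled #3 and 11.76 in #10 at day 2, against 12.51 in scramble. On day 5 it had 12.27 in #1, 12.18 in #3 and 12.21 in #10, against 12.14 in the day 5 array labelled scramble. All 3 hairpin arrays lay under scramble at day 2 and above the day 5 array labelled scramble, by at most 0.13 log2 on the later day. That split was seen in 1 of 8 members and in 3.2% of tested genes. The change at day 2 was -0.40 log2 (SE 0.28, interval -1.07 to 0.26, adjusted p = 1.00) for CKS2 and -0.54 log2 (SE 0.44, interval -1.57 to 0.49, adjusted p = 1.00) for CKS1B. Without the array labelled #3 at day 2 these changes were -0.58 and -0.82 log2.

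CDK1 was nearly level. Its log2 signal was 10.44 in #1, 10.77 in the array labelled #3 and 10.42 in #10 at day 2, against 10.58 in scramble. At day 5 it was 10.58 in #1, 10.70 in #3 and 10.41 in #10, against 10.58 in the day 5 array labelled scramble. The range of 0.36 log2 was the smallest of the 8 genes. No neighbours in the order of levels differed by more than the moderated residual SD of 0.17. At day 2 the change was -0.04 log2 (SE 0.23, interval -0.59 to 0.51), an interval that holds changes of 0.5 log2 either way, and it turned to 0.10 after quantile normalization. The second probe set had 80.8% of the signal of scramble in #10 at day 2 and 74.6% of that of the day 5 array labelled scramble in #10 at day 5. The dimmest had a mean of 3.39 log2, well under the filter.

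Counted array by array, the members lay under scramble mainly at day 2 and in #10. In #10 at day 2, 5 of 8 members (CDK2, CCNA2, CDC25A, CKS1B and CKS2) were lower than scramble by 0.5 log2 or more, against 15% of all tested genes. In the array labelled #3 at day 2, 4 of 8 were (CCNE1, CCNE2, CCNA2 and CDC25A), against 8.84% of genes, and in #1 at day 2, 2 of 8 (CDK2 and CDC25A), against 6.84%. At day 5 the counts against the day 5 array labelled scramble were 3 of 8 in #10 (CCNE2, CCNA2 and CDC25A), against 8.01% of genes, 1 of 8 in #3 (CCNA2), against 16.4%, and 0 of 8 in #1, against 4.53%. Higher by 0.5 log2 or more was CCNE2 alone, in #1 and in #10 at day 2 (1 of 8 each, against 3.1% and 15.1% of genes). No member was that much higher in the array labelled #3 at day 2 (0 of 8, against 5.25%) or at day 5 in #1 (0 of 8, against 2.36%), #3 (0 of 8, against 18.3%) and #10 (0 of 8, against 13.4%). CDC25A was past this level in #1, #10 and the array labelled #3 at day 2. CKS1B and CKS2 were past it in #10 alone, and stood at -0.43 and -0.41 log2 in #1 at day 2. These are single arrays, and differences between hairpins in which genes passed were not tested. The median member stood at -0.28, -0.32 and -0.95 log2 in #1, the array labelled #3 and #10 at day 2, where the median gene stood at 0.01, 0.03 and -0.03. On day 5 it stood at 0.01, -0.09 and -0.25, where the median gene stood at -0.03, -0.09 and -0.11. All hairpin arrays of a day were set against the same scramble array, so these counts share its error.

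All 3 hairpins lay under scramble at day 2 for 5 members (CDK2, CCNE1, CCNA2, CDC25A and CKS2), against 26.5% of tested genes. At day 5 all 3 lay under the day 5 array labelled scramble for 3 members (CDK2, CCNA2 and CDC25A), against 30% of genes. With the hairpins as repeats, limma called 0 of 8 members and 0 of 12845 genes (0%) at day 2, with an unadjusted p under 0.05 for 0 members and 442 genes. All 8 changes at day 2 were below 0, with a median of -0.47 log2, against a median of 0.02 over all tested genes, of which 46.8% were below 0. CCNA2 had -0.59 log2 (SE 0.54), CCNE1 had -0.34 (SE 0.35) and CCNE2 had -0.30 (SE 1.03), and CCNE2 turned to 0.63 without the array labelled #3 at day 2. At day 5 limma also called 0 of 8 members and 0 genes (0%), with an unadjusted p under 0.05 for 0 members and 171 genes. There CCNA2 had -0.73 log2 (SE 0.54, adjusted p = 0.913) and CKS1B had -0.18 (SE 0.44). Over both days the call was again 0 of 8 members and 0 genes (0%), with an unadjusted p under 0.05 for 0 members and 109 genes, with CCNA2 at -0.66 (SE 0.43) and CDC25A at -0.65 (SE 0.37). For the difference of the knockdown change between days limma called 0 of 8 members and 0 genes (0%), with an unadjusted p under 0.05 for 0 members and 164 genes.

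Taken hairpin by hairpin, with the 2 days as repeats, #10 had 2 members called, both lower. CCNA2 fell by 1.14 log2 (SE 0.20, interval -1.61 to -0.68, adjusted p = 0.0441) and CDC25A by 1.19 log2 (SE 0.22, interval -1.71 to -0.67, adjusted p = 0.047), with the change in the same direction in 2 of 2 arrays each. For both genes the 2 #10 arrays lay under both scramble arrays. The 2 of 8 stand beside 0.319% of all tested genes called lower in #10. An unadjusted p under 0.05 was reached by 3 of 8 members and by 2599 of 12845 genes (20.2%). CKS1B had -0.74 log2 (SE 0.30, adjusted p = 0.229), CDK2 -0.83 (SE 0.42, adjusted p = 0.321) and CKS2 -0.34 (SE 0.24, adjusted p = 0.513), and none of these passed. CCNE1 had -0.19 log2 (SE 0.25), CDK1 -0.17 (SE 0.17) and CCNE2 0.08 (SE 0.73). CCNE2 differed between the 2 #10 arrays, at 0.70 and -0.55 against the scramble array of the same day. The target itself was not among the called members, and its #10 arrays stood at -1.56 and -0.11 log2.

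Both calls in #10 ended when any 1 of the 4 arrays of #10 and scramble was left out. CCNA2 then stood at -1.21 (adjusted p = 0.256) without scramble at day 2, at -1.07 (0.209) without the day 5 array labelled scramble, at -1.06 (0.185) without #10 at day 2 and at -1.23 (0.077) without #10 at day 5. CDC25A stood at -0.88 (adjusted p = 0.302), -1.50 (0.187), -1.03 (0.231) and -1.34 (0.0733) in the same order. They also ended with each array centred on its median, at -1.12 (adjusted p = 0.0599) for CCNA2 and -1.16 (0.08) for CDC25A, and on the second probe set of each gene, at -0.85 (0.0565) and -1.28 (0.0626). Over all alternatives the adjusted p ran from 0.0142 to 0.256 for CCNA2 and from 0.0367 to 0.302 for CDC25A. The p-values measure how a change differed between the 2 days, not a spread between separate cultures. CD3D was also high in both #10 arrays, with the values given above, and its part in these calls was not tested.

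**Figure D4:**
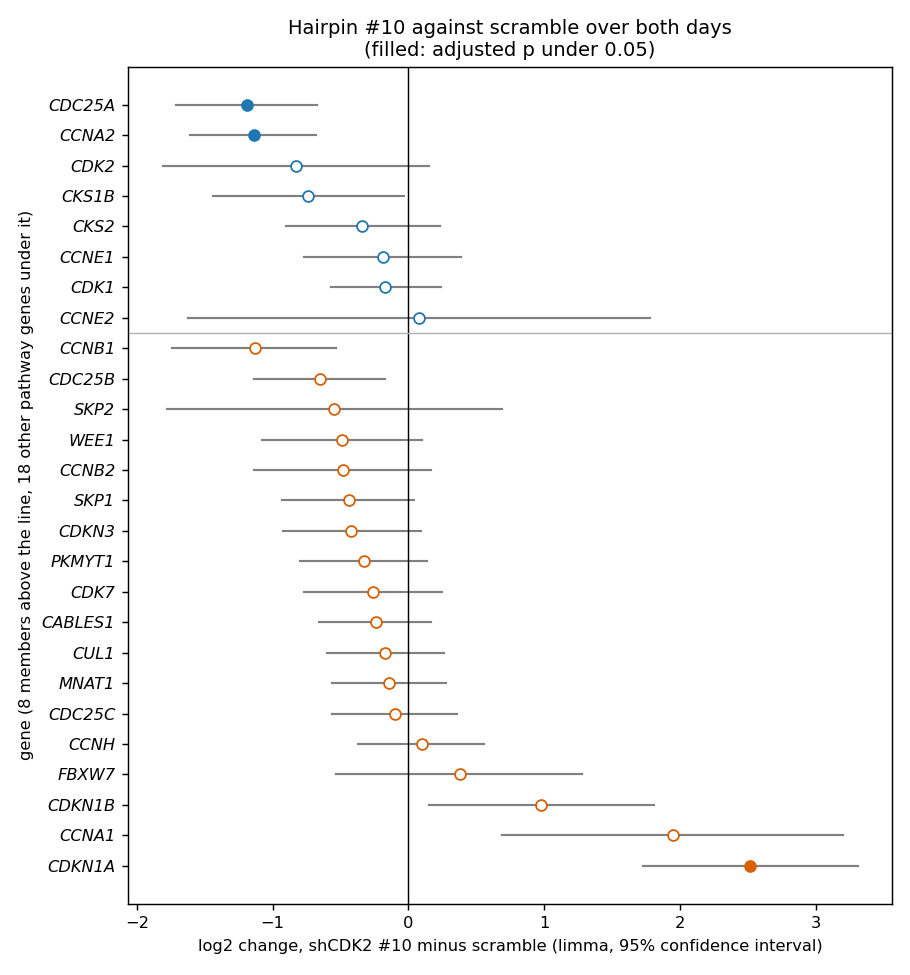
Log2 change of #10 over scramble from both days (horizontal axis) with 95% confidence intervals, for the 8 members (upper, blue) and 18 other genes of the CDK2 pathway (lower, orange). Filled points passed an adjusted p under 0.05 in limma: CDC25A and CCNA2 were lower, and CDKN1A was higher.

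The other hairpins had 0 of 8 members called. In #1 the change over both days was -0.81 log2 for CDK2 (SE 0.42, interval -1.79 to 0.16, adjusted p = 1.00) and -0.36 for CDC25A (SE 0.22, interval -0.88 to 0.16, adjusted p = 1.00), with an unadjusted p under 0.05 for 0 members and for 171 of 12845 genes, and 0% of genes called lower. In #3 it was -0.27 for CDK2 (SE 0.42, interval -1.25 to 0.71), -0.80 for CCNA2 (interval -1.26 to -0.34) and -0.93 for CCNE2 (SE 0.73, interval -2.63 to 0.77). In #3, 1 member (CCNA2) and 1216 genes had an unadjusted p under 0.05, and 0% of genes were called lower and 0.0311% higher. The #3 values for CDK2 and CCNE2 leaned on the array labelled #3 at day 2: without it they were -0.88 and 0.58 log2. Without #3 at day 5 they were 0.34 and -2.44 log2, and CDK2 was 0.08 log2 without scramble at day 2. Set directly against #1, #10 had CCNA2 at -1.11 log2 (SE 0.20, interval -1.57 to -0.65, adjusted p = 0.0713), with CDC25A at -0.83 (SE 0.22, interval -1.35 to -0.31, adjusted p = 0.152) and CKS1B at -0.53 (SE 0.30, interval -1.24 to 0.17, adjusted p = 0.432). None passed over all genes, beside 0.00779% of genes called lower in that comparison and 2035 genes with an unadjusted p under 0.05, 2 members among them. CCNA2 passed there without both #3 arrays (adjusted p = 0.0202), and likewise without either one of them.

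Other genes of the CDK2 pathway were read from a list of 20, of which 18 passed the filter. They are further cyclins, the CDK-activating kinase CDK7 with CCNH and MNAT1, the other CDC25 phosphatases, the inhibitory kinases WEE1 and PKMYT1, CDK inhibitors and parts of the SCF ubiquitin ligase. Against scramble, #10 had 1 of 18 higher and 0 of 18 lower, beside 1.69% and 0.319% of all tested genes. The gene that rose was CDKN1A, which encodes the CDK inhibitor p21. Its log2 signal was 9.16 in #10 at day 2, against 7.0 in scramble, and 10.72 in #10 at day 5, against 7.84 in the day 5 array labelled scramble. CDKN1A rose by 2.52 log2 over both days (SE 0.34, adjusted p = 0.0218), and the call ended without scramble at day 2 (2.67, adjusted p = 0.197), without the day 5 array labelled scramble (2.37, adjusted p = 0.187) and without a day term (2.52, adjusted p = 0.083). CCNA1, a cyclin A gene active in germ cells and in myeloid leukaemias, had 1.95 log2 (SE 0.54, adjusted p = 0.103). It stood at 6.85 in #10 at day 2, against 5.89 in scramble, and at 8.96 in #10 at day 5, against 6.03 in the day 5 array labelled scramble. CCNA1 passed without #10 at day 2 (3.06, adjusted p = 0.0033), and without #10 at day 5 it was 0.84 log2. The 2 cyclin A genes thus stood on opposite sides of scramble in #10, CCNA2 below it and CCNA1 above it. CCNB1, the mitotic cyclin B1 gene, had -1.13 (SE 0.26, adjusted p = 0.0744), and it passed without both #3 arrays (adjusted p = 0.043). CDKN1B, the gene of the inhibitor p27, had 0.98 (SE 0.36, adjusted p = 0.18).

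At day 2, 0 of the 18 passed in limma, and 0 had an unadjusted p under 0.05. The largest changes at day 2 were 1.08 log2 for CDKN1A (SE 1.04), -0.85 for CCNB1 (SE 0.51), 0.64 for CDKN1B (SE 0.75) and -0.50 for SKP2 (SE 0.74), which encodes the substrate receptor that targets p27. With its 2 probe sets averaged, SKP2 was at -0.07 log2. The list had a median of -0.17 log2 at day 2 and -0.25 in #10, against 0.02 and -0.09 over all tested genes. Between days within the hairpins CDKN1A had 1.13 log2 (SE 0.73, adjusted p = 1.00), and 0 of the 18 passed. The count was also 0 of 18 at day 5, over both days, for the difference between days, in #1, in #3 and in #10 against #1.

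Over the 8 arrays, the 5 tested genes whose levels were most like those of CDK2 were CCDC85B (Pearson r = 0.97), MRPL2 (0.95), HAUS7 (0.95), POLR1H (0.95) and RPF2 (0.94), where the median gene had 0.09 and the 95th percentile was 0.73. Among the members, CKS2 (0.85) and CKS1B (0.84) lay above that percentile, CDC25A had 0.52, CDK1 0.51, CCNA2 0.35, CCNE1 -0.25 and CCNE2 -0.74. The 2 arrays with high CDK2, scramble at day 2 and the array labelled #3 at day 2, set part of these values. Without them r over 6 arrays was 0.65 for CKS2, 0.69 for CKS1B, 0.48 for CDC25A, 0.42 for CCNA2 and 0.09 for CDK1. It was -0.63 for CCNE1, -0.78 for CCNE2 and 0.76 for CCDC85B, and the 95th percentile was again 0.73. Spearman's rho over the 8 arrays was 0.79 for CKS2, 0.86 for CKS1B, 0.62 for CDC25A and -0.86 for CCNE2. The arrays share constructs and days and fall into a high and a low set for CDK2, so these values describe 8 arrays and were given no test.

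**Figure D5:**
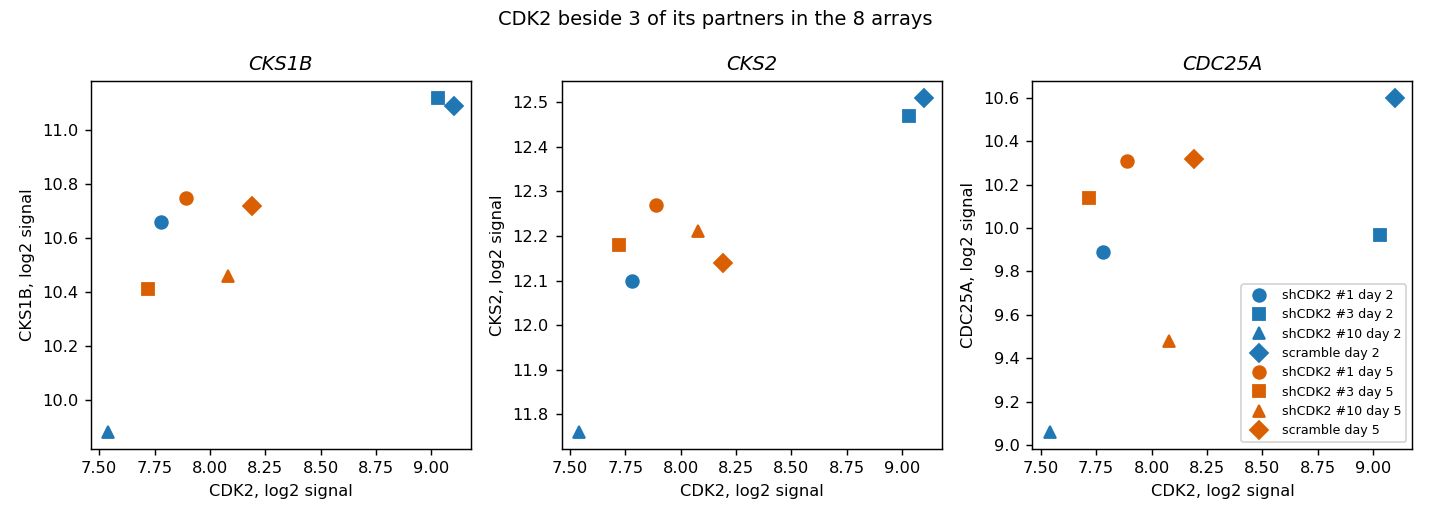
Log2 signal of CDK2 (horizontal axis) beside that of CKS1B, CKS2 and CDC25A (vertical axes) in the 8 arrays, with symbols for constructs and colours for days. Scramble at day 2 and the array labelled #3 at day 2 stand together at the top right for both CKS genes, and for CDC25A the array labelled #3 at day 2 (9.97) lies under scramble at day 2 (10.60).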

How the data were processed

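Each of the 8 Affymetrix arrays came as deposited log2 signals of 49395 probe sets, a scale read from the range of the values. Partek is named in the submitters' processing notes, without a version. The sources used here do not give the normalization. Per the labels' protocols, cRNA was made from 6 micrograms of total RNA. Of the probe sets, 44994 had a single gene in the platform annotation, 1832 had several and 2569 had none. Symbols were updated by Entrez gene ID through RefSeq (44967 matched, 27 did not). Genes were tested where the mean exceeded the 40th percentile of all probe sets.

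Models were fitted with limma 3.58.1 (R 4.3.3), with moderated variances (eBayes). P-values were two-sided and adjusted by Benjamini-Hochberg over 12845 genes, with 0.05 as the threshold. Knockdown at each day and the day comparisons used a mean per group and day, knockdown over both days used construct means, and hairpins were compared with construct and day as terms. A lone array was assumed to vary like the rest. With no separate cultures named, p-values measure the spread between these samples, which may in part be technical. In the fits by day and in the fit over both days, that spread lay between different hairpins, as scramble had no repeats there. It is thus not a measure of technical noise alone. The fits were checked on simulated data, and the number of arrays limits the precision. Deviations of the same hairpin on the 2 days correlated at 0.72 (#1), -0.23 (#3) and 0.43 (#10). Some unlike numbers correlated more closely. The #10 array at day 2 had 0.57 with #3 at day 5, and the array labelled #3 at day 2 had 0.32 with #1 at day 5. The comparisons between days therefore did not treat hairpin numbers as pairs. The fits by hairpin and over both days did join the arrays of a hairpin number, also for #3. Figures were drawn with matplotlib 3.10.9.

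All 8 members were named. In the list of other pathway genes those past the threshold and up to 4 with the largest change were named, and the 5 genes most like CDK2 were taken by Pearson r, leaving aside LOC symbols, antisense transcripts and unnamed open reading frames. Members, lists and tests were chosen with earlier results of these data known.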

Additional observations from a re-analysis of the deposited data

Results flagged for a closer look

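CKS2 was marked because all 3 hairpins lay under scramble at day 2 and all 3 above the day 5 array labelled scramble. The knockdown change at day 5 minus that at day 2 was 0.48 log2 (SE 0.40, 95% confidence interval -0.46 to 1.42), with 0.08 at day 5 and -0.40 at day 2, and limma's test of the difference did not pass (adjusted p = 1.00). Of the tested genes, 3.2% showed the same split. CKS2 in the day 5 array labelled scramble was 77.5% of scramble at day 2.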

How the results depend on the processing

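Alternatives were quantile normalization, centring each array on its median, no filter, averaging the probe sets of a gene, an intensity trend, no day term, the hairpin as a replicate block, other probe sets of a member, and leaving out each array or each hairpin. Over 45 single-gene results and 754 alternatives, 712 kept direction and call, 16 lost the call, 7 gained it and 19 changed sign. The cause was not tested. Only CCNA2, CDC25A and CDKN1A in #10 had a call to lose, so all 16 losses were theirs. The remaining results had no call in the main fit, so the count of 712 is no measure of how stable the calls were. Members called in #10 went to 0 with centring and to 1 (CCNA2) without a day term, and without single arrays ranged from 0 to 2. For #10 against #1 that range was 0 to 1. With the replicate block, 0 genes passed in the 2 comparisons between days, and CDC25A stood at 0.33.

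Genes called in #10 numbered 258 (84.1% higher), 82 with centring (97.6% higher), 147 without a day term and 0 to 960 with arrays left out. In #3 they numbered 4, 0 with centring and with probe set means, 9 with the trend, 1 without a day term and 0 to 213. In #10 against #1 they numbered 42, 0 with centring, 19 with probe set means, 71 with the trend, 15 without a day term and 0 to 612. Over both days they ranged from 0 to 11, the most without #10. A day's contrasts were not run without that day's scramble array.

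Sign changes were few. CDK1 at day 2 was 0.10 after quantile normalization and ranged from -0.15 to 0.02 with arrays left out. With arrays left out CCNE2 ranged from -0.79 to 0.63 and SKP2 from -1.13 to 0.02 at day 2. In #3, CDK2 ranged from -0.88 to 0.34 and CCNE2 from -2.44 to 0.58. In #10, CCNE1 ranged from -0.41 to 0.03 and CCNE2 from -0.87 to 1.02, and CCNE2 was -0.02 with probe set means and -0.11 on its second probe set. On the dimmest probe set, CKS1B at day 5 was 0.08 and the difference between days of CDK2 was 0.00.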

Other observations

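SKP2 had the log2 signals 8.01 in #1, 9.48 in the array labelled #3 and 7.18 in #10 at day 2, against 8.72 in scramble. At day 5 it had 8.28 in #1, 7.99 in #3 and 8.11 in #10, against 7.66 in the day 5 array labelled scramble. SKP2 was under scramble in #1 and #10 at day 2 and above it in the array labelled #3 at day 2, and all 3 hairpins were above the day 5 array labelled scramble. With its 2 probe sets averaged, the change at day 2 was -0.07 log2, against -0.50 on the brighter one. This gene was singled out here after its values were seen.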
